A study of Mus musculus with 9 samples.

Results

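The smooth muscle contractile genes Acta2, Tagln, Cnn1, Myh11, Des, Actg2, Lmod1, Smtn, Synpo2 and Myocd were followed in mouse lung. They were chosen by name, as genes known for the contractile apparatus of smooth muscle, its anchoring and its transcription. The choice was made with earlier results of these data known. Each was found through the RefSeq accession of its probe, and where a gene had several probes the brightest was read. They are 10 of the 19698 genes with a named probe that was kept, and 13 of the 39302 probes kept belong to them.

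The tissue was lung from 10-week-old male C57BL/6 mice, anesthetized with zoletil and rompun for the exposure. The design text states that the left lung received radiation once, and total RNA was hybridized to single-color Agilent arrays. The labels name 4 arrays as control and 5 as irradiated, and give no dose, lung region or time, so the irradiated arrays may differ from each other in any of these. According to the methods, RNA of 3 mice was pooled before labeling, so the spread between arrays is not a spread between single mice. Among the irradiated arrays it may hold differences of dose, region or time beside those between pools. The p-values measure only this spread between arrays, and the labels do not say whether arrays share mice. In bulk tissue, fewer smooth muscle cells and less RNA per smooth muscle cell cannot be told apart.

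Smooth muscle surrounds the conducting airways and the larger vessels of the lung and sets their diameter. Contraction starts when calcium-bound calmodulin switches on myosin light chain kinase, which lets smooth muscle myosin pull on actin filaments. The serum response factor Srf, together with its coactivator myocardin, binds CArG boxes near many contractile genes. Some of these genes are shared with other cells: activated myofibroblasts also make Acta2 and Tagln, and cardiac muscle also makes Des, Myocd and Synpo2.

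The array titled Irradiated 1 and the array titled Control 3 stood apart in markers of other muscle. All 18 cardiac muscle markers had their lowest value on Irradiated 1, and only 13 of them were well above background there. The mean of the cardiac list, on the log2 scale relative to the control mean, was −4.96 on Irradiated 1, while controls lay between −0.37 and 0.39 and Irradiated 2 to 5 between −0.52 and 0.42. The mean of the 14 skeletal muscle markers was 3.71 on Control 3, while on each of the other 8 arrays it was −0.79 or lower. All 14 were well above background on Control 3 and only 8 to 13 on each of the others, so the size of that gap rests in part on probes at background. Every result below was therefore computed with all arrays and again without Irradiated 1. All 10 alveolar epithelium markers and all 10 endothelium markers were well above background on all 9 arrays.

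All 10 contractile genes had a lower mean on the irradiated arrays than on the control arrays, with and without Irradiated 1, but none passed the test at an adjusted p under 0.05 in the unpaired comparison. Arrays were also paired by their position in the scan, an alternative added with the data known and described further on. With it 3 or 4 of 10 passed, among them Acta2 and Actg2 each time. Paired calls were read for the members only. In those paired fits 1.25% to 3.51% of all probes were lower at the threshold. The median log2 difference of the 10 genes was −0.44 with all arrays and −0.33 without Irradiated 1. Over all 19698 genes the same medians were 0.01 and −0.01, with 48.1% and 51.1% of genes lower. At the threshold, limma found 0 of 10 members with all arrays, where 0.142% of all probes were lower, 0.191% higher and 0.333% either. Without Irradiated 1 it again found 0 of 10, where 0.489% of probes were lower, 0.74% higher and 1.23% either. At an unadjusted p under 0.05, Acta2, Cnn1, Actg2 and Synpo2 were lower in both comparisons, which is 4 of 10 members each time. The shares of all probes lower by that measure were 4.41% and 5.11%, and the shares higher were 5.52% and 5.77%. No member was higher by it. Since the list was chosen with earlier results of these data known, these counts describe the members and do not test them as a set.

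**Figure D1:**
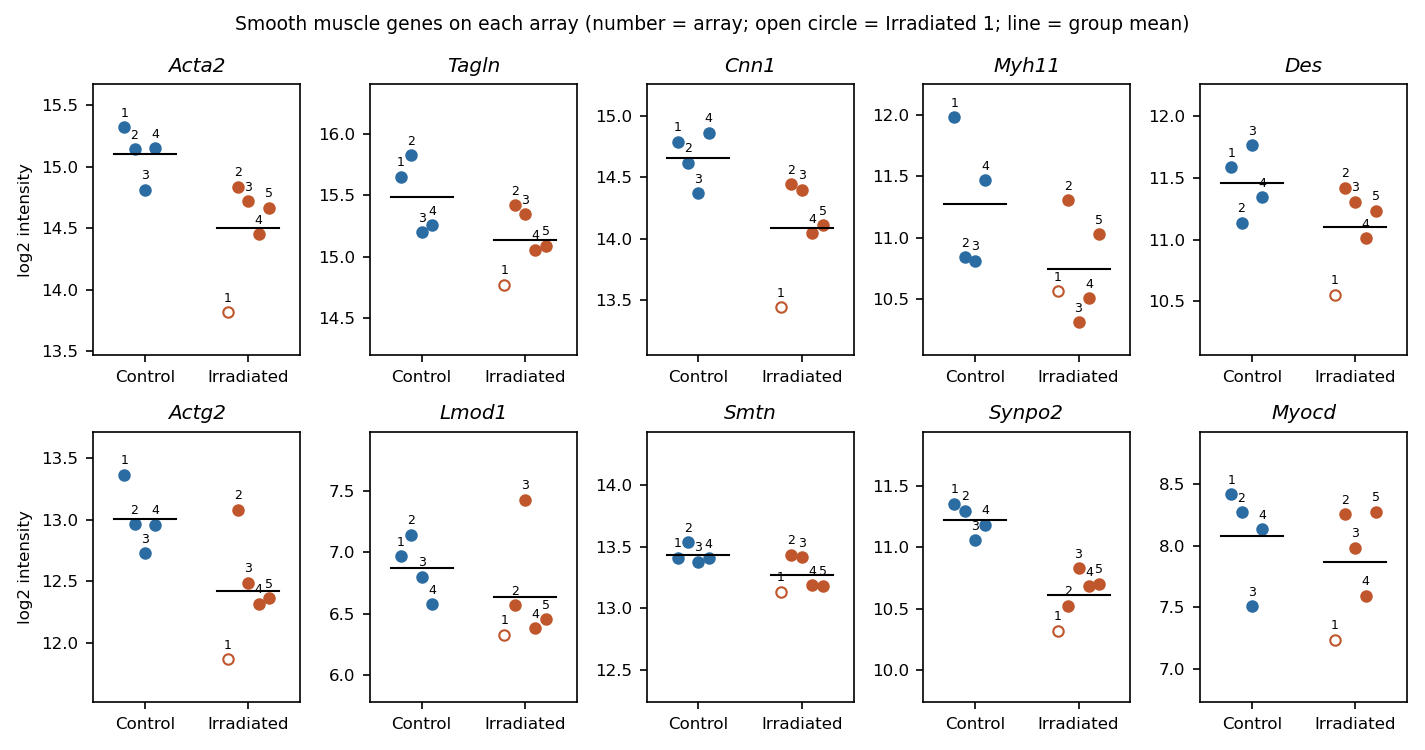
Log2 quantile-normalized intensity of each of the 10 contractile genes (vertical axis, a separate scale per gene) on each of the 4 control and 5 irradiated arrays, numbered as in their titles. Lines are group means and the open circle is Irradiated 1. Synpo2 is the gene whose groups do not overlap, and Irradiated 1 has the lowest value for 9 of the 10 genes.

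The actins and the myosin form the filaments themselves. Acta2 encodes alpha smooth muscle actin, the main actin of vascular and airway smooth muscle. Its log2 intensity was 15.32, 15.14, 14.81 and 15.15 on Control 1 to 4 and 13.82, 14.84, 14.72, 14.45 and 14.67 on Irradiated 1 to 5. Irradiated 1 lay far below all other arrays, and of the rest only Irradiated 2 lay above the lowest control array. The log2 difference (irradiated minus control) of Acta2 was −0.61 with a 95% interval of −1.05 to −0.17, a 1.52-fold lower mean intensity, and limma gave an adjusted p of 0.292. Without Irradiated 1 the difference was −0.44 (SE 0.12, adjusted p = 0.172), and with scan pairs as a block Acta2 passed (adjusted p = 0.0299).

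Actg2 encodes the gamma smooth muscle actin that is typical of visceral muscle. It measured 13.37, 12.97, 12.73 and 12.96 on the control arrays and 11.86, 13.08, 12.49, 12.32 and 12.36 on the irradiated arrays. All irradiated arrays but Irradiated 2 lay below every control array. The log2 difference was −0.58 (SE 0.22, adjusted p = 0.379) and without Irradiated 1 it was −0.44 (SE 0.19, adjusted p = 0.443). With scan pairs as a block Actg2 passed (adjusted p = 0.0453). Acta2 and Actg2 are nearly identical in protein with the cardiac and skeletal actins Actc1 and Acta1, and hybridization of a probe to another actin was not tested. Actc1 itself measured 13.24 on Irradiated 1, against 15.39 to 15.96 on the other irradiated arrays and 15.66 to 16.21 on the control arrays.

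Myh11 encodes the smooth muscle myosin heavy chain, the motor that pulls on actin and the most specific marker of mature smooth muscle. Its log2 intensity was 11.98, 10.84, 10.81 and 11.47 on the control arrays and 10.57, 11.31, 10.31, 10.51 and 11.03 on the irradiated arrays. The groups overlapped, and the lowest value was on Irradiated 3 rather than Irradiated 1. The difference of −0.53 had a standard error of 0.28 and an adjusted p of 0.592. Leaving out Irradiated 1 gave −0.48 (SE 0.30, adjusted p = 0.683). The size rested in part on Control 1, without which the difference was −0.30 with all arrays and −0.25 without Irradiated 1. With scan pairs as a block Myh11 passed (adjusted p = 0.0476), and with them as a random block it did not.

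Among the proteins that bind actin filaments, Cnn1 encodes calponin, which restrains the myosin motor. Cnn1 measured 14.79, 14.62, 14.37 and 14.86 on the control arrays and 13.45, 14.44, 14.40, 14.04 and 14.11 on the irradiated arrays. Irradiated 2 and 3 lay just above the lowest control array, and the other irradiated arrays lay below all controls. The log2 difference was −0.57 with a 95% interval of −1.01 to −0.13 (adjusted p = 0.322), and −0.41 without Irradiated 1 (SE 0.14, adjusted p = 0.260). With scan pairs as a random block Cnn1 passed without Irradiated 1 (adjusted p = 0.0330) and not with all arrays (adjusted p = 0.0610). With them as a block it did not pass (adjusted p = 0.0985 and 0.0978 with and without Irradiated 1).

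Tagln encodes transgelin, an early marker of the smooth muscle lineage that bundles actin. Its values were 15.65, 15.83, 15.20 and 15.26 on the control arrays and 14.77, 15.42, 15.35, 15.06 and 15.09 on the irradiated arrays. The groups overlapped, since Irradiated 2 and 3 exceeded both Control 3 and Control 4. The difference of −0.35 (SE 0.17) had an adjusted p of 0.544, and it was −0.26 (SE 0.16, adjusted p = 0.672) without Irradiated 1.

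Smtn encodes smoothelin, a protein of contractile smooth muscle that lies along actin stress fibers. It had the narrowest control group of the 10 genes, at 13.41, 13.54, 13.38 and 13.41 (SD 0.070). The irradiated arrays measured 13.13, 13.44, 13.42, 13.19 and 13.19, so that 3 of 5 lay below all controls. The difference was −0.16 (SE 0.09, adjusted p = 0.618), and −0.13 without Irradiated 1 (adjusted p = 0.743). A second, dimmer Smtn probe went the other way, with a log2 difference of 0.18 (SE 0.14, adjusted p = 0.773), and the mean of both probes gave 0.0092, so the sign of Smtn depends on the probe.

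Lmod1 encodes leiomodin, which starts new actin filaments in smooth muscle. Its log2 intensity was 6.97, 7.14, 6.80 and 6.58 on the control arrays and 6.33, 6.57, 7.43, 6.38 and 6.46 on the irradiated arrays. Irradiated 3 had the highest value of all 9 arrays while the other irradiated arrays lay below all controls. The difference of −0.24 had a 95% interval of −0.80 to 0.32 (adjusted p = 0.852), and without Irradiated 1 it was −0.16 (SE 0.26, adjusted p = 0.942). Without Irradiated 3 the difference was −0.43 with all other arrays.

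The last group anchors the filaments or controls their transcription. Synpo2 encodes synaptopodin 2, also called myopodin, which bundles and anchors actin at dense bodies and at the Z-discs of striated muscle. Its log2 intensity was 11.35, 11.30, 11.06 and 11.18 on the control arrays and 10.32, 10.52, 10.83, 10.68 and 10.70 on the irradiated arrays. All 5 irradiated arrays lay below all 4 control arrays, and Synpo2 was the only member for which the groups did not overlap. This is 1 of 10 members, against 1.65% of probes with every irradiated array below every control array and 2.51% with every one above. Without Irradiated 1 the count was again 1 of 10, against 3.31% below and 3.99% above.

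The log2 difference of Synpo2 was −0.61 (95% interval −0.88 to −0.34), a 1.53-fold lower mean intensity, and its limma adjusted p of 0.0762 was the lowest among the members. Without Irradiated 1 the difference was −0.53 (SE 0.11, adjusted p = 0.0533), which again missed the threshold. It passed at an adjusted p of 0.0435 when that comparison was scaled to the 75th percentile, and at 0.0479 when probes had to exceed background on every array. With scan pairs as a random block Synpo2 passed (adjusted p = 0.00662 with all arrays and 0.00564 without Irradiated 1). With them as a block it did not (adjusted p = 0.0537 and 0.0535). The difference was smaller in the deposited table, at −0.33 with all arrays and −0.29 without Irradiated 1 (adjusted p = 1.00 in both), and as the mean of all its probes, at −0.36 and −0.31 (adjusted p = 0.463 and 0.566). The other Synpo2 probes had differences of −0.40 and −0.06 with all arrays, so the size differed between probes of the gene. These probes were far dimmer, at control means of 6.38 and 6.12 in that order, against 11.22 for the probe read.

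Des encodes desmin, the intermediate filament of muscle cells. Its values were 11.59, 11.14, 11.77 and 11.34 on the control arrays and 10.55, 11.42, 11.31, 11.01 and 11.23 on the irradiated arrays, with overlap in the upper range. The difference was −0.35 (SE 0.19, adjusted p = 0.607), and −0.21 (SE 0.15, adjusted p = 0.740) without Irradiated 1. The highest value was on Control 3, the array on which the skeletal muscle markers stood apart. Without Control 3 the difference was −0.25, and −0.11 with Irradiated 1 also left out. A part of skeletal muscle in the Des values was not tested.

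Myocd encodes myocardin, the coactivator of Srf. It measured 8.42, 8.27, 7.51 and 8.13 on the control arrays and 7.24, 8.26, 7.98, 7.59 and 8.28 on the irradiated arrays. Control 3 lay below 4 of the 5 irradiated arrays, so the groups overlapped widely. The difference was −0.21 with a 95% interval of −0.81 to 0.38 (adjusted p = 0.882), and −0.06 (SE 0.24, adjusted p = 0.988) without Irradiated 1. The last value changed sign when 1 further array was left out and ranged from −0.25 to 0.088 over the alternatives.

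**Figure D2:**
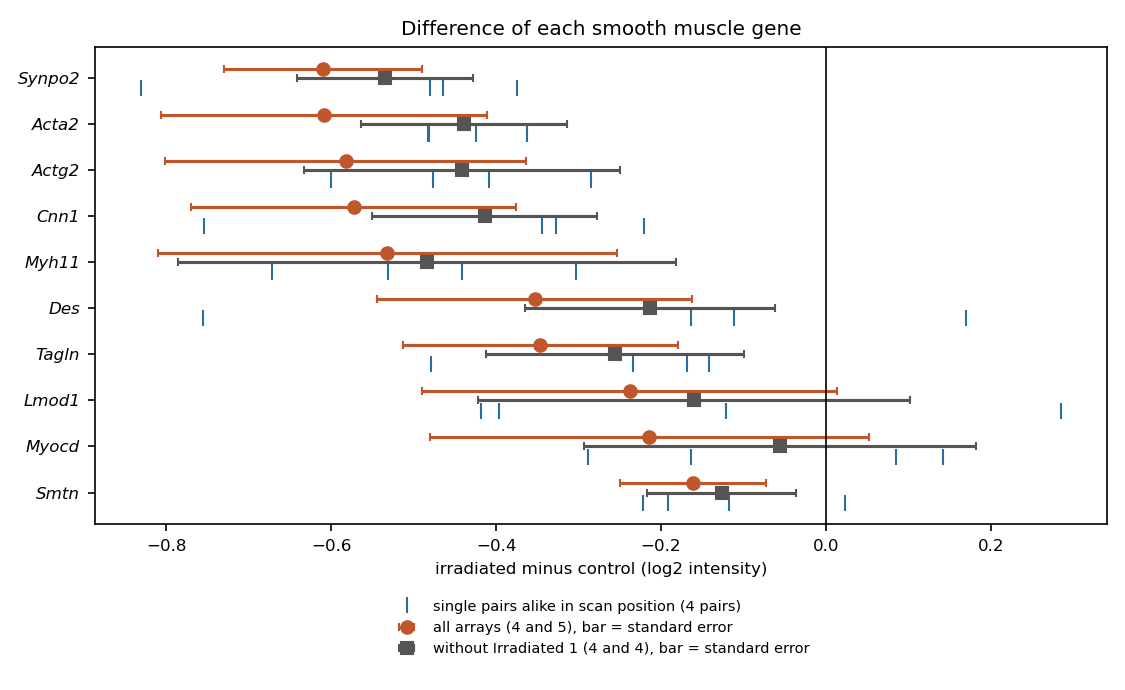
Log2 difference (irradiated minus control, horizontal axis) of each contractile gene with all arrays and without Irradiated 1, as circles and squares with standard errors, and ticks for the 4 pairs of arrays alike in scan position that are described further on. All circles and squares lie below 0, and the squares, without Irradiated 1, are closer to 0 for every gene.

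The 10 genes varied together in part. On Irradiated 1 their mean, relative to the control mean, was −0.86 on the log2 scale, the lowest of the 9 arrays. It was −0.13, −0.24, −0.54 and −0.35 on Irradiated 2 to 5, and 0.22, 0.02, −0.22 and −0.03 on Control 1 to 4. Only Irradiated 2 had a mean above that of the lowest control array, Control 3. On Irradiated 1 the single genes lay between −1.29 (Acta2) and −0.30 (Smtn) from their control means. Cardiac muscle markers moved with this array as given above, and their part in the members' values was not tested. Without Irradiated 1 all 10 members still had negative differences. Leaving out Control 3 in place of Irradiated 1 gave a median of −0.55, leaving out both gave −0.43, and limma found 0 of 10 members past the threshold in either case.

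Over the 9 arrays, the 45 pairs of members had a median Pearson correlation of 0.74, from −0.07 for Myh11 with Lmod1 to 0.98 for Acta2 with Cnn1. Without Irradiated 1 the median was 0.57, from −0.22 to 0.94 for the same pairs. Acta2 with Actg2 had a correlation of 0.93 over 9 arrays and 0.89 without Irradiated 1. These values describe arrays that share the group difference and the array effects, and are given without a test.

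The scanner files gave a further split of the arrays. By the vertical position of the spots on the scan image, 4 control arrays each had 1 irradiated array as their nearest neighbor: Control 1 with Irradiated 2, Control 2 with Irradiated 3, Control 3 with Irradiated 4, and Control 4 with Irradiated 5. Irradiated 1 had no partner. The median local background of partners was also alike, for instance 43.5 and 45.5 for Control 2 and Irradiated 3, and 24 on both Control 4 and Irradiated 5. The files do not say what these pairs are. Deviations from group means were correlated across genes, each read from its brightest probe. Partners had a correlation of 0.18 to 0.43, against −0.15 to 0.10 for arrays with the same number in their titles.

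Within these pairs the filament genes were lower on the irradiated array each time. Acta2 differed by −0.48, −0.42, −0.36 and −0.48, a narrower spread than between the pools of either group. Actg2 differed by −0.28, −0.48, −0.41 and −0.60, and Myh11 by −0.67, −0.53, −0.30 and −0.44. Myh11 overlapped widely between the groups and yet was lower in 4 of 4 pairs. Synpo2, Cnn1 and Tagln were also lower in 4 of 4 pairs, with ranges of −0.83 to −0.37, −0.75 to −0.22 and −0.48 to −0.14. Des, Lmod1 and Smtn were lower in 3 of 4 pairs, and Myocd in 2 of 4. The 6 of 10 members lower in every pair compare with 16.8% of all probes, while 14.7% of probes were higher in every pair and no member was.

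With the scan pairs as a block, an alternative added with the data known, limma found 3 of 10 members past the threshold and lower. They were Acta2 (−0.44, SE 0.048, adjusted p = 0.0299), Actg2 (−0.44, SE 0.067, adjusted p = 0.0453) and Myh11 (−0.49, SE 0.077, adjusted p = 0.0476). Synpo2 had an adjusted p of 0.0537 and Cnn1 of 0.0985. Irradiated 1 has no partner and adds nothing to these differences. In this fit 1.26% of all probes were lower at the threshold, and 1.25% in the same fit without Irradiated 1, which gave the same 3 members.

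With the pairs as a random block, limma again found 3 of 10 with all arrays, namely Acta2 (adjusted p = 0.0384), Actg2 (adjusted p = 0.0491) and Synpo2 (adjusted p = 0.00662), where 3.28% of all probes were lower. Without Irradiated 1, 4 of 10 passed, where 3.51% of probes were lower. They were Acta2 (adjusted p = 0.00792), Actg2 (adjusted p = 0.0416), Cnn1 (adjusted p = 0.0330) and Synpo2 (adjusted p = 0.00564). Acta2 and Actg2 passed in all 4 of these fits, and whether the pairing comes from the handling of the arrays was not tested.

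The other genes of contraction were read from lists chosen by function. Calls for these lists and for all genes named further on are from the unpaired comparison, and paired calls are given for the members only. Of 16 genes of the contraction machinery and its control, none passed in either comparison, and their median log2 difference was −0.03 with all arrays and −0.06 without Irradiated 1. Its brightest genes by the mean over all 9 arrays were Myl6, a myosin light chain that most cells share, with a difference of 0.12 (SE 0.10), and Tpm4, a tropomyosin of the general cytoskeleton, with 0.28 (SE 0.09, adjusted p = 0.296). Of these 16 genes, 9 were lower with all arrays and 10 without Irradiated 1. Further genes of this list are given here as examples in both directions, picked after their values were seen. Rhoa, Cnn2 and Cald1 had positive differences of 0.21, 0.15 and 0.12 (limma adjusted p = 0.524, 0.686 and 0.911). Myl9, the regulatory light chain of smooth muscle myosin and second to Myl6 on the control arrays alone, had a difference of −0.43 (adjusted p = 0.320). Tpm2, a tropomyosin of muscle, had −0.61 (adjusted p = 0.224), and Hspb6, a small heat shock protein of muscle, had −0.65 (adjusted p = 0.346) with all irradiated arrays below all controls. Without Irradiated 1, Hspb6 had −0.48 (adjusted p = 0.367). Mylk, the myosin light chain kinase, had −0.21 (adjusted p = 0.841), and −0.11 without Irradiated 1. Tpm1, a tropomyosin that cardiac muscle also makes, had −0.92 (adjusted p = 0.780) with a value of 11.39 on Irradiated 1 and 14.49 or more on the other arrays, and −0.20 (adjusted p = 0.930) without that array. At an unadjusted p under 0.05, 3 of the 16 genes were lower and 1 was higher in both comparisons.

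Of 16 genes of the Srf and myocardin pathway none passed, and the median was −0.06 with all arrays and −0.05 without Irradiated 1. Srf itself measured between 12.00 and 12.44 on control and between 11.95 and 12.30 on irradiated arrays, with a difference of −0.02 (SE 0.12, adjusted p = 0.991). By the unadjusted measure 2 of the 16 genes were lower and 2 higher in both comparisons. Elk1, an Srf partner that competes with myocardin, had −0.01, and Tgfbr2, a receptor for transforming growth factor beta, had 0.39 (adjusted p = 0.366).

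Of 15 genes that anchor the smooth muscle cytoskeleton, 1 passed and was higher without Irradiated 1. This was Tes, the focal adhesion protein testin, with a log2 difference of 0.70 (SE 0.12, adjusted p = 0.0307). With all arrays it was 0.59 (adjusted p = 0.170). None was lower at the threshold.

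Of 16 receptors for contractile agonists and relaxants, 2 passed and were higher without Irradiated 1, and none was lower. Htr2b, a serotonin receptor, measured 8.05 to 8.79 on the control arrays, 9.42 to 9.78 on Irradiated 2 to 5 and 8.69 on Irradiated 1. Its difference was 1.04 without Irradiated 1 (SE 0.18, adjusted p = 0.0320) and 0.88 with it (adjusted p = 0.183). Cysltr1, the leukotriene receptor that mediates bronchoconstriction, ran from 9.67 to 9.77 on control and from 10.16 to 10.44 on irradiated arrays, without overlap. Its difference was 0.61 without Irradiated 1 (adjusted p = 0.0307) and 0.58 with it (adjusted p = 0.0513). Leukocytes also make this receptor. None of the 10 smooth muscle ion channel genes measured, of 11 listed, passed. By the unadjusted measure 1 was lower and 1 higher with all arrays, and 0 were lower and 3 higher without Irradiated 1. The brightest were the calcium-activated chloride channel Ano1 (0.30, adjusted p = 0.360) and the calcium release channel Itpr1 (−0.14, adjusted p = 0.766).

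**Figure D3:**
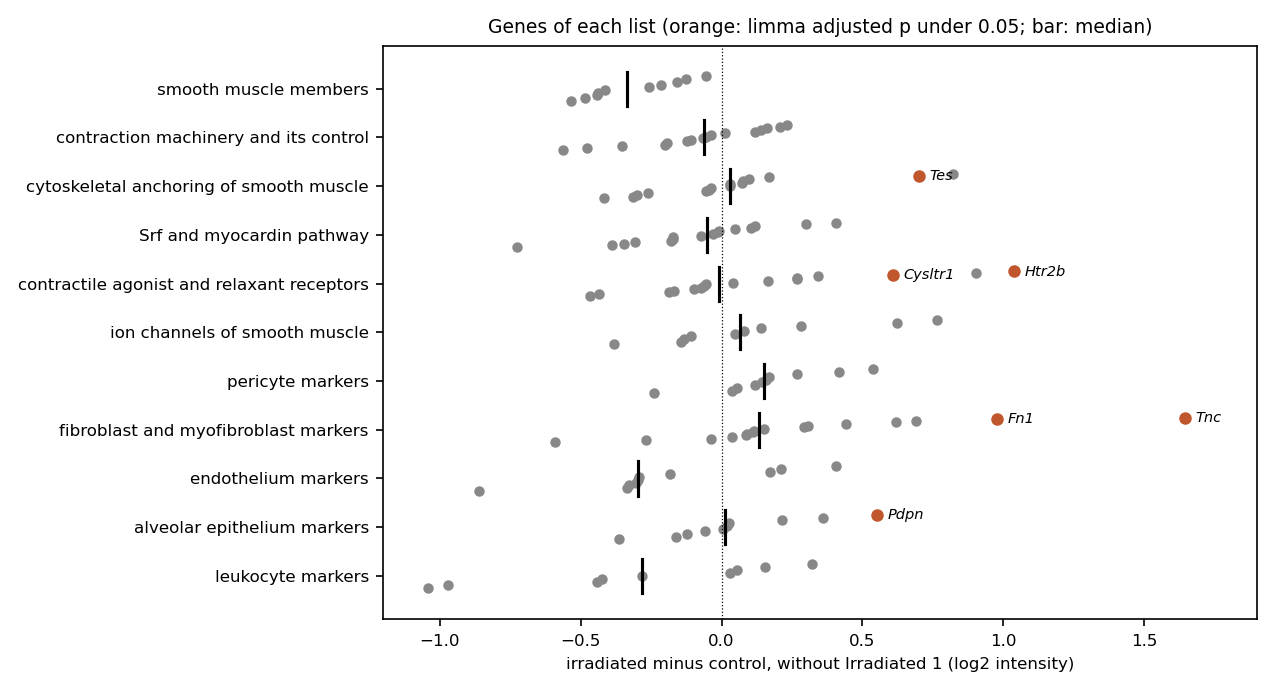
Log2 difference without Irradiated 1 (horizontal axis) of each gene in the contractile list and in 10 further lists, with a bar at each median. The contractile genes all lie below 0 with a median of −0.33, and the 6 orange genes, which passed limma's test in the unpaired comparison, are all higher.

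Markers of other cells were read for the same arrays. The 10 pericyte markers, which come from the mural cells of small vessels that resemble smooth muscle, had a median difference of 0.12 with all arrays and 0.15 without Irradiated 1. Of these 9 of 10 were higher and none passed, with 2 higher by the unadjusted measure with all arrays and 1 without Irradiated 1. Their summed linear intensity ran from 55782 to 64523 on control and from 63603 to 74658 on irradiated arrays. The 2 brightest, Mcam and Higd1b, had differences of 0.12 (adjusted p = 0.922) and 0.37 (adjusted p = 0.493). In the same sums, the 10 contractile genes gave 112786 to 152338 on controls, 93318 to 122255 on Irradiated 2 to 5 and 70842 on Irradiated 1.

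The 16 fibroblast and myofibroblast markers had a median difference of 0.21 with all arrays and 0.13 without Irradiated 1. By the unadjusted measure 5 were higher and 0 lower with all arrays, and 4 were higher and 1 lower without Irradiated 1. The lower one, named after its value was seen, was Dcn, the matrix proteoglycan decorin, at −0.59 (adjusted p = 0.427). With all arrays 1 marker passed and was higher. Fn1, which encodes the matrix protein fibronectin, ran from 15.23 to 15.47 on control and from 15.93 to 16.59 on irradiated arrays, a difference of 0.90 (SE 0.13, adjusted p = 0.0326). Without Irradiated 1, Fn1 had 0.98 (adjusted p = 0.0116), and Tnc, the matrix protein tenascin C, passed with 1.65 (SE 0.32, adjusted p = 0.0479) after an adjusted p of 0.122 with all arrays. Acta2 and Tagln, which myofibroblasts also make, had negative differences on the same arrays.

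The 10 endothelium markers had a median of −0.20 with all arrays and −0.30 without Irradiated 1, with 7 of 10 lower and none past the threshold in both. The 2 brightest, Ramp2 and Vwf, had differences of −0.15 (SE 0.23) and −0.24 (SE 0.13) with all arrays, and of −0.30 and −0.18 without Irradiated 1. Of 9 leukocyte markers measured none passed in either comparison, with medians of −0.27 and −0.28, and the 2 brightest over all arrays, Lyz2 and Itgam, had 0.30 (SE 0.33) and −0.51 (SE 0.17). Without Irradiated 1 these medians lay near the −0.33 of the contractile genes, with 7 of 10 endothelium and 5 of 9 leukocyte markers lower against 10 of 10 contractile genes, and whether the lists differ was not tested. By the unadjusted measure 1 endothelium and 2 leukocyte markers were lower with all arrays, 2 and 3 were lower without Irradiated 1, and none was higher. Of the 10 alveolar epithelium markers, Pdpn passed and was higher without Irradiated 1 (0.55, adjusted p = 0.0388) and not with all arrays (0.52, adjusted p = 0.0631).

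The cardiac list had a median difference of −1.14 with all arrays and −0.21 without Irradiated 1, and none of its 18 genes passed in either, or by the unadjusted measure. Its summed intensity ran from 258402 to 449797 on controls, 245774 to 422024 on Irradiated 2 to 5 and 16691 on Irradiated 1. By the mean over all 9 arrays, which Irradiated 1 lowers unequally, its 2 brightest genes were Actc1 and the atrial light chain Myl4, at differences of −0.78 and −0.94 with all arrays and −0.30 and −0.04 without Irradiated 1. On the control arrays and on Irradiated 2 to 5 the brightest was Myh6, a cardiac myosin heavy chain, at −1.97 with all arrays and −0.17 (adjusted p = 0.935) without Irradiated 1. The skeletal list also had no gene past the threshold and 1 lower by the unadjusted measure in both comparisons, with Tnni2 at 15.51 on Control 3 and between 10.49 and 11.46 on the others, and Acta1 at 14.67 on Control 3 and between 8.96 and 10.42 on the others.

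**Figure D4:**
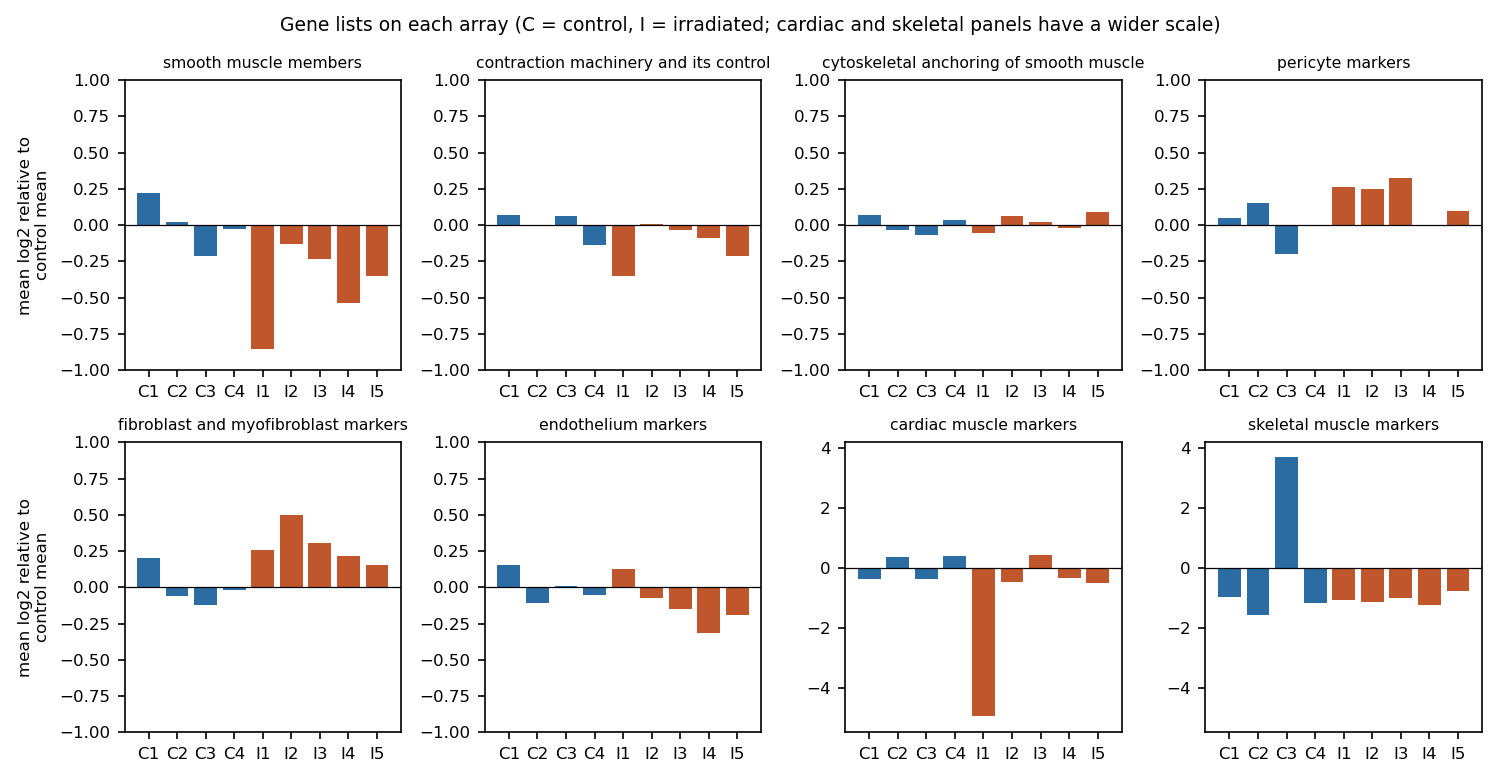
Mean log2 intensity of each gene list relative to its control mean (vertical axis) on each array, for Control 1 to 4 (C1 to C4) and Irradiated 1 to 5 (I1 to I5). The contractile genes are below 0 on all irradiated arrays, the cardiac list is at −4.96 on I1 and the skeletal list at 3.71 on C3, both on a wider axis.

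The 5 genes outside the list whose values followed the contractile genes most closely over the 9 arrays were found by likeness. Likeness was the Pearson correlation with the mean of the 10 members, each set to a mean of 0. The first was the claudin gene Cldn22 (r = 0.98 over 9 arrays, 0.95 without Irradiated 1). It was followed by Mcrip2 (0.96 and 0.95), the epoxide hydrolase gene Ephx2 (0.96 and 0.90), the small nucleolar host gene Snhg7 (0.95 and 0.92) and the cytochrome P450 gene Cyp2e1 (0.95 and 0.90). Cldn22 was not well above background on 1 irradiated array. None of these genes passed the test, and their log2 differences ran from −2.23 for Cldn22 to −0.29 for Snhg7.

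Because the members had differences in one direction, the sequence before their start sites was searched for the box that Srf binds. RefSeq windows on GRCm38.p6, from 250 bases before to 50 after the start, were at hand for 6 of the 10 members: Acta2, Cnn1, Des, Lmod1, Smtn and Synpo2. Both strands were read. A full CArG box was in 0 of these 6 windows and in 1.63% of 32851 windows. With 1 base other than A or T allowed in its core of 6, the box was in the Acta2 window alone, at both 84 and 34 bases before the start, and in 8.5% of all windows. CATTCC, the core letters that Tead factors bind, was in 3 of 6 (Acta2, Lmod1 and Smtn) and in 14.7% of all windows. TATAAA was in the Synpo2 window and in 13.6% of all, and GGGCGG was in those of Des, Lmod1, Smtn and Synpo2 and in 35.7% of all. No matches of different motifs overlapped in these windows. A match describes letters only, and no match says only that the letters are not in this window. The stretches with matches are shown for Acta2, whose window alone held the relaxed box, and for Lmod1 and Smtn, which shared CATTCC with it. They lie at chr19:34255378-34255539 (minus strand), chr1:135324663-135324708 (plus strand) and chr11:3539489-3539534 (minus strand), and are written 5′ to 3′ in the direction of the gene, with capitals marking the relaxed CArG boxes and CATTCC or its reverse complement.
Acta2: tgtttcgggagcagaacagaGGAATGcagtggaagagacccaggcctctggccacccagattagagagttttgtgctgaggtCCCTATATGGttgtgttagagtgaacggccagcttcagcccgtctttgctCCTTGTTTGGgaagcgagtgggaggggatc
Lmod1: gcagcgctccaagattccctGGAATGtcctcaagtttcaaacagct
Smtn: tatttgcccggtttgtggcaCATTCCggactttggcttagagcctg

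The log2 differences of the genes with windows were −0.61 (Acta2), −0.57 (Cnn1), −0.35 (Des), −0.24 (Lmod1), −0.16 (Smtn) and −0.61 (Synpo2). Without Irradiated 1 they were −0.44, −0.41, −0.21, −0.16, −0.13 and −0.53 in the same order. Acta2, whose window alone held a relaxed box, and Synpo2 without one were the first or second of the 6 by size in both comparisons, and Lmod1 and Smtn, which shared CATTCC with Acta2, had the smallest differences in both. This order did not hold in every alternative. In the deposited table with all arrays, Cnn1 (−0.53) and Acta2 (−0.51) had larger differences than Synpo2 (−0.33). Without Irradiated 3, Lmod1 (−0.43) had a larger difference than Des (−0.40).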

How the data were processed

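Total RNA from 4 control and 5 irradiated lung pools was measured on single-color arrays. For each array the authors deposited intensity values from Agilent Feature Extraction (version not given in the sources used here), namely a background-corrected processed signal, the median signal, the median local background and, as other deposited values, marks for spots that were well above background, saturated or outliers. They also deposited a table of quantile-normalized intensity values, used only as an alternative. Its rows were matched to the gene spots of the arrays.

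Of 44397 spots per array, 1377 control spots and the outlier spots were left out. A probe was kept if, on 4 or more of 9 arrays, its signal was over 1.4 times its local background (39302 of 39429). Log2 values of the processed signal were quantile normalized, and spots of a probe were averaged. Accessions gave a symbol for 26055 probes through a RefSeq table of GRCm38.p6. No spot was saturated, 72.8% to 89.1% of spots per array were well above background, and the number of arrays limits the precision.

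Groups were compared with limma 3.58.1 (R 4.3.3), without covariates, with a variance trend on intensity and with p-values adjusted by Benjamini-Hochberg across the kept probes. The code was tested on simulated data. Array numbers were checked for pairing by the correlation of array deviations, and the main comparison took the arrays as unpaired. The named genes were all members, the genes of each other list past the threshold in either comparison (otherwise the 2 brightest), and the 5 genes most like the members' mean. Myl9, Tpm2, Hspb6, Mylk, Tpm1, Rhoa, Cnn2, Cald1, Srf, Myh6 and Dcn are named outside this rule, chosen with their values known. Members and lists were chosen with earlier results of these data known. Alternatives were normexp (offset 50), 75th percentile scaling, other background filters, the deposited table, the mean of a gene's probes, no trend, array weights, each array left out, a replicate block, and scan pairs as a fixed or random block.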

Additional observations from a re-analysis of the deposited data

Results flagged for a closer look

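In a check of 46 groups of arrays for 1 array far from the others, 3 groups held such an array, or 6.52%, where chance gives about 5% or 2.3 groups. Lmod1 measured 7.43 on Irradiated 3, against 6.33 to 6.57 on the other irradiated arrays. The mean of the cardiac muscle markers was −4.96 on Irradiated 1, against −0.52 to 0.42 on the other irradiated arrays. The mean of the skeletal muscle markers was 3.71 on Control 3, against −1.57 to −0.98 on the other control arrays.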

How the results depend on the processing

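The median log2 difference of the contractile genes stayed negative in every alternative run, from −0.55 to −0.30 when 1 array was left out of all arrays, and at −0.29 with all arrays and −0.23 without Irradiated 1 in the deposited table. The count of members past the threshold, 0 in both comparisons, became 3 of 10 with scan pairs as a block in both, 3 and 4 with them as a random block with and without Irradiated 1, and 1 (Synpo2) without Irradiated 1 under 75th percentile scaling and under the filter on every array. The shares of all probes lower at the threshold, with and without Irradiated 1, were 1.26% and 1.25% with the block and 3.28% and 3.51% with the random block. Without Irradiated 1 the shares were 0.603% under 75th percentile scaling and 0.769% under the filter on every array. In the unpaired comparison, leaving out any 1 array gave 0 each time. The sign turned for Smtn with the mean of its probes (0.0092) and for Myocd without Irradiated 1 when Control 1 (0.055), Control 2 (0.0070) or Irradiated 4 (0.088) was also left out, with a range of −0.25 to 0.088 when 1 array was left out. Leaving out 1 array also moved the differences of Myh11, Lmod1, Myocd, Des and Tagln by over 1.5 times, for instance Des without Irradiated 1 from −0.21 to −0.11 without Control 3, and Tagln from −0.26 to −0.14 without Control 2. The cause was not tested.

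Over all probes, 131 passed with all arrays and between 5 and 483 with 1 array left out, the highest without Irradiated 1. When 1 further array was left out beside Irradiated 1, between 50 (0.127%) and 475 (1.21%) passed, against 483 (1.23%). With all arrays, scan pairs as a block gave 1105 and as a random block 2898. Of the probes that passed with all arrays 42.7% were lower. This share was 58.1% under 75th percentile scaling, 75% in the deposited table, 50.9% with normexp and 29.5% without the intensity trend, and 8.33% to 56.5% with 1 array left out. The array numbers of the titles as a replicate block gave 0 members in both comparisons, a median of −0.48 with all arrays and −0.21 without Irradiated 1, and 1 and 7 probes in all. The deviations of arrays with the same number correlated at −0.15 to 0.096, which cannot settle whether these arrays share more than a number. A block by slide or scan as named by the files was not run, since the files used here name none. With pooled RNA on 9 arrays, a p that misses the threshold does not show that a gene was equal in both groups.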
